A study of Mus musculus with 6 samples.

Results

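The genes described here encode proteins that make ribosomes in the nucleolus: 57 genes that were fixed by name and sorted by role into RNA polymerase I transcription, nucleolar scaffolds, the 2 classes of small nucleolar ribonucleoprotein particle (snoRNP), the small subunit processome, late 40S assembly and 60S assembly. The list was chosen with earlier results of these data known. Each gene was found by its symbol in the array maker's symbol column of the authors' deposited table. Of several probes, the brightest over the 6 arrays stands for the gene. All 57 were measured, each well above background on all 6 arrays, among 21224 genes and unnamed probes tested in all. They have 78 probes, of which 75 carry a transcript accession that the reference names as the same gene, while the accessions of the other 3 are not in it. A second symbol column of that table holds 34 of the 57.

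Gene expression was measured with 1-colour Agilent arrays in RNA of the dorsal forebrain, dissected from 3 control and 3 mutant mouse embryos (1 embryo a sample) at stage E11.5. The labels name the groups control and mutant and give no gene, allele, promoter, Cre line or strain for either, so the sources used here do not say what the mutation removes or adds, or in which cells. By its title, the study asks about Wnt/beta-catenin signalling in cortical precursors. Each of 3 litters gave 1 control and 1 mutant. Litter 1 was hybridised on slide 1 and litters 2 and 3 on slide 2. Emx1, Emx2, Pax6 and Lhx2, transcription factors of the dorsal telencephalon, were well above background on all 6 arrays, although their levels differed between the groups (given with the marker lists). Their presence is a weak check of the tissue label, since 65.75% to 70.1% of the spots on each array were flagged well above background.

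A ribosome begins as a long precursor RNA that RNA polymerase I transcribes from the ribosomal DNA repeats in the nucleolus. SnoRNPs modify this precursor, large assemblies fold and cut it, and separate sets of assembly factors lead the small (40S) and large (60S) subunits to the cytoplasm. Dividing progenitors of the early cortex are known for large nucleoli and a high demand for new ribosomes, and proteins of the Myc family are known activators of many of these genes.

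All 57 genes had a lower mean in the mutants. The median log2 difference, mutant minus control, was -0.31, with quartiles of -0.42 and -0.20, against a median of 0.02 over all genes and probes, of which 45.0% had a negative difference. In linear terms the mutant signal ranged from 61.9% of the control signal (Gnl3) to 99.4% (Noc3l), with a median of 80.5%. The differences are small, and 0 of the 57 passed the test over all genes (limma, Benjamini-Hochberg adjusted p under 0.05), which called 0.033% of all genes and probes (0.0236% with mutants lower and 0.00942% with mutants higher). At an unadjusted p under 0.05, 45 of the 57 were lower, against 7.42% of all genes and probes, and 0 were higher, against 9.47%. In 49 of the 57, all 3 mutants lay below all 3 controls, which was so for 11.9% of all genes and probes. Because the list was chosen with earlier results of these data known, these shares describe it and are no test of it. A level here is a log2 signal with the 75th percentile of its array set to 0, errors of differences are standard errors (SE), and the number of arrays limits the precision of every value.

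**Figure D1:**
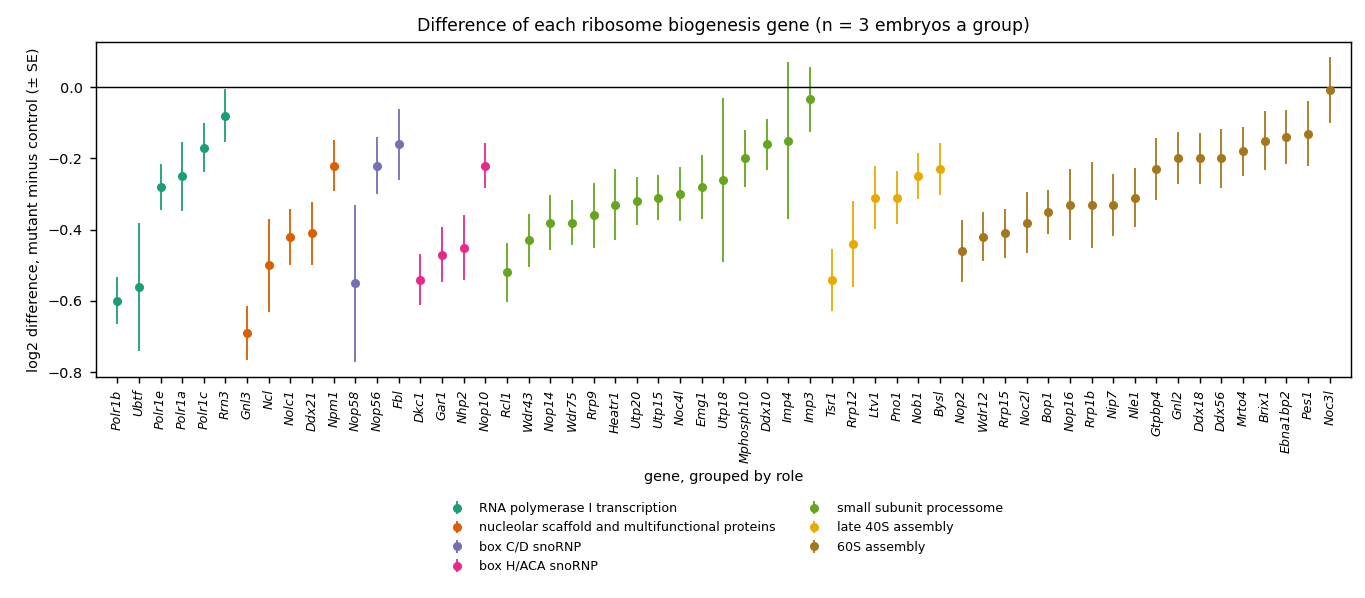
Log2 difference, mutant minus control, of each of the 57 genes (vertical axis, points with SE bars, n = 3 embryos a group), grouped and coloured by role along the horizontal axis. Every point lies below 0, from -0.69 for Gnl3 to values near 0 for Imp3 and Noc3l.

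The lower median of the 57 genes did not rest on a single embryo or litter. Taken over the 57 genes, the median deviation from the control mean read -0.30, -0.37 and -0.29 for mutants 1, 2 and 3 and -0.06, 0.0013 and 0.065 for controls 1, 2 and 3. Every mutant thus lay below every control, and the mutants lay within 0.1 of each other. Compared within litters, the median difference was -0.23, -0.31 and -0.36 in litters 1, 2 and 3, with 55, 56 and 55 of the 57 genes lower in the mutant. In 54 of the 57 genes the mutant was lower in all 3 litters, against 21.2% of all genes and probes. The median was -0.227 within slide 1 and -0.327 within slide 2. The count of 45 genes at an unadjusted p under 0.05 did move with the embryo left out. It ranged from 30 (without control 3) to 41 (without control 1). The smallest adjusted p in limma then ranged from 0.088 (without mutant 1) to 0.346 (without control 3).

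**Figure D2:**
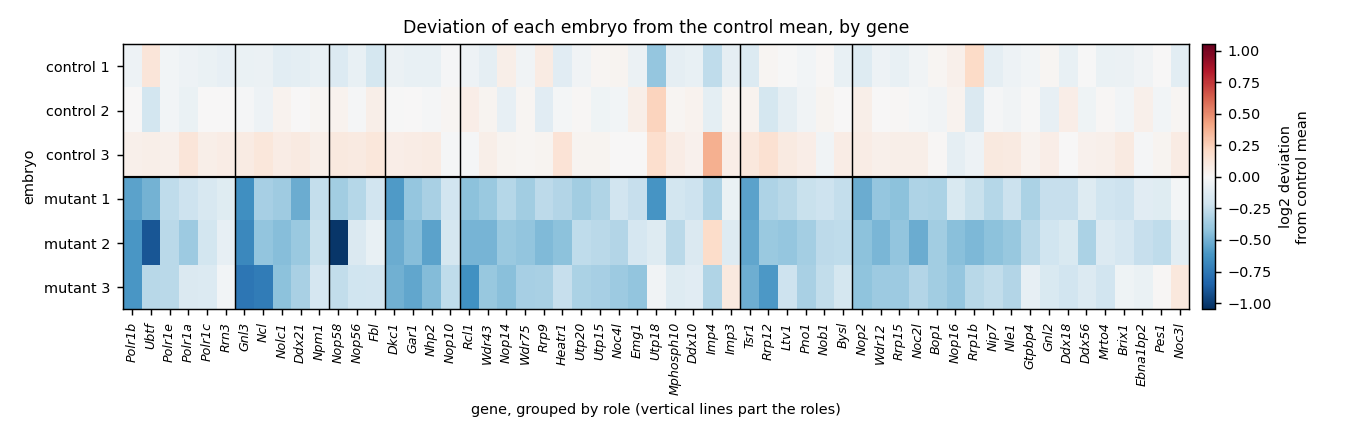
Deviation of each embryo (rows) from the control mean for each of the 57 genes (columns, in the order of roles used above), as a log2 value on a colour scale from blue (lower) to red (higher). The 3 mutant rows are blue in most columns, and the exceptions include mutant 2 in Imp4 and mutant 3 in Imp3.

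Probes that were not chosen gave the same direction. A further 21 probes, from 17 of the 57 genes, were also above background on at least 3 arrays. All 21 had a negative difference (median -0.306, from -0.563 to -0.109). In 18 of them all mutants lay below all controls, against 11.9% of all genes and probes tested. The 4 probes of Npm1 differed by -0.220, -0.242, -0.290 and -0.300, and both probes of Tsr1 by -0.542 and -0.563. The probes of Ubtf disagreed in size, at -0.561 for the brighter and -0.109 for the dimmer, whose groups overlapped. The chosen probe gave a smaller difference in Ebna1bp2 (-0.144 against -0.306 and -0.340), Mphosph10 (-0.202 against -0.435) and Nop56 (-0.219 against -0.246 and -0.417). It gave a larger one in Ncl (-0.500 against -0.306) and Nip7 (-0.327 against -0.148, with overlapping groups). The order of these genes by size thus depends on the probe. Probes of a gene share the same RNA and are not replicates.

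Nucleolar scaffold and multifunctional proteins had the lowest single value. Gnl3, which encodes nucleostemin, a nucleolar GTP-binding protein abundant in stem and progenitor cells, read 0.97, 1.03 and 1.12 in controls 1, 2 and 3 against 0.40, 0.36 and 0.28 in mutants 1, 2 and 3. The groups were far apart next to their spread, and the difference of -0.69 (SE 0.076) corresponds to a 1.62-fold lower signal, at an adjusted p of 0.0756 (limma). Its probe lies at chr14:31826877-31826936 in the mm9 build of the array. Ncl, which encodes nucleolin, an abundant RNA-binding protein of the nucleolus, read 4.75, 4.76 and 4.93 in the controls against 4.46, 4.40 and 4.08 in the mutants (difference -0.50, SE 0.13), with mutant 3 the lowest. Npm1, which encodes nucleophosmin, the chaperone of the outer nucleolus, read 6.46, 6.57 and 6.60 in the controls against 6.30, 6.31 and 6.37 in the mutants (-0.22, SE 0.071). Nolc1, a chaperone of snoRNPs, and the RNA helicase Ddx21 differed by -0.42 and -0.41. In all 5 genes of this role the groups did not overlap, and 5 of 5 had an unadjusted p under 0.05. Over all genes and probes the shares with mutants lower were 11.9% and 7.42%.

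Genes of RNA polymerase I transcription differed among themselves. Polr1b, the second-largest subunit of the polymerase, read 0.71, 0.77 and 0.82 in the controls against 0.20, 0.16 and 0.15 in the mutants. These values were tight within each group, and the difference was -0.60 (SE 0.066, 1.51-fold lower, limma, adjusted p = 0.0758; probe at chr2:128951870-128951929). Ubtf, the factor that binds the ribosomal DNA promoter, read 6.12, 5.80 and 6.05 in the controls against 5.50, 5.10 and 5.70 in the mutants. Its difference of -0.56 had a wider error (SE 0.18), since both groups spread, with control 2 and mutant 2 the lowest of their groups. The catalytic subunit Polr1a and the subunits Polr1e and Polr1c differed by -0.25, -0.28 and -0.17. Rrn3, which brings the polymerase to its promoter, read 2.41, 2.5 and 2.57 in the controls against 2.37, 2.41 and 2.47 in the mutants, so that the groups overlapped (-0.08, SE 0.075). Of the 6 genes, 4 had an unadjusted p under 0.05, against 7.42% of all genes and probes with mutants lower.

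**Figure D3:**
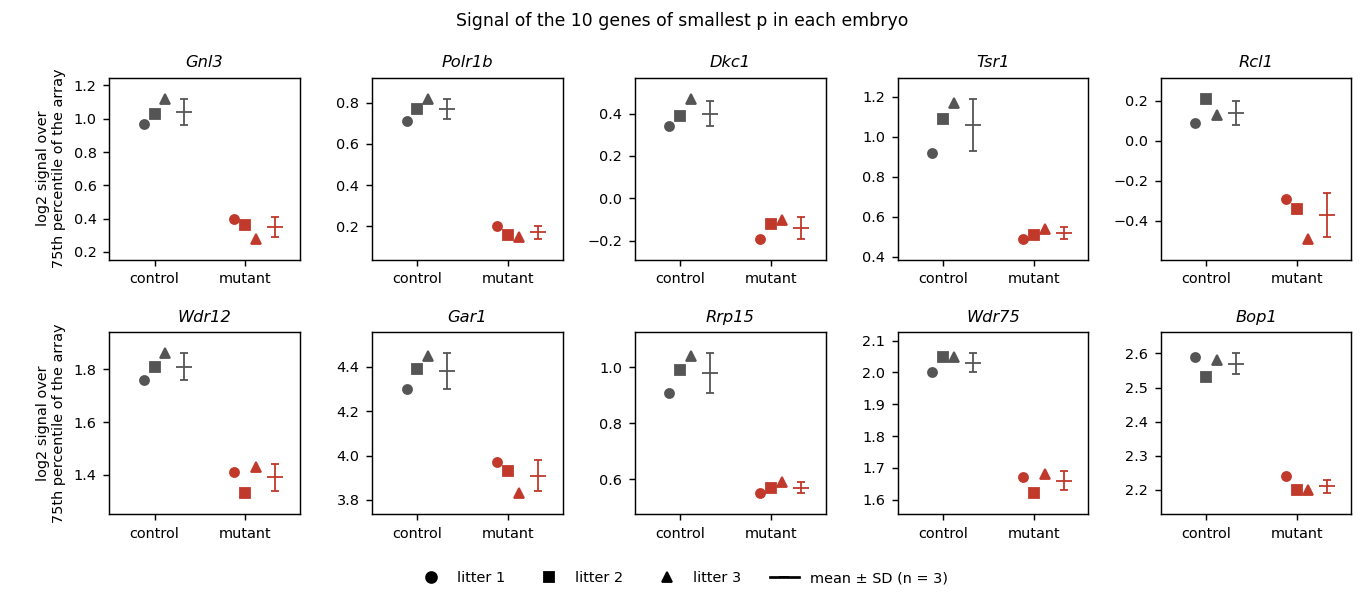
Log2 signal relative to the 75th percentile of the array (vertical axes, which differ between panels) in each embryo for the 10 genes of smallest p, controls in grey and mutants in red, with a symbol for each litter and the mean ± SD (n = 3). In each panel the 3 mutants lie below the 3 controls, as for Polr1b at 0.15 to 0.20 against 0.71 to 0.82.

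The 4 proteins of the box H/ACA snoRNP, which turns uridines of ribosomal RNA into pseudouridines, all had groups that did not overlap. Dkc1, the pseudouridine synthase itself and a part of telomerase, read 0.34, 0.39 and 0.47 in the controls against -0.19, -0.12 and -0.10 in the mutants. The difference was -0.54 (SE 0.071, 1.45-fold lower, limma, adjusted p = 0.0993), and the probe lies at chrX:72354473-72354532. Its partner Gar1 read 4.30, 4.39 and 4.45 in the controls against 3.97, 3.93 and 3.83 in the mutants (-0.47, SE 0.078), and Nhp2 was at 4.62, 4.70 and 4.79 and at 4.37, 4.14 and 4.25 (-0.45, SE 0.09). Nop10, the smallest of the core proteins, read 3.01, 3.04 and 3.0 in the controls against 2.81, 2.83 and 2.76 in the mutants (-0.22, SE 0.063). All 4 had an unadjusted p under 0.05, and the median difference was -0.46. Groups that did not overlap, with mutants lower, made up 11.9% of all genes and probes. An unadjusted p under 0.05 with mutants lower was found in 7.42%.

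In the box C/D snoRNP, which adds methyl groups to ribose, the 3 genes had a median difference of -0.22. Nop58, a scaffold of the particle, read 3.12, 3.31 and 3.37 in the controls against 2.90, 2.24 and 3.01 in the mutants, where mutant 2 lay far below the other two. Its difference of -0.55 (SE 0.22) therefore has a wide error. The companion scaffold Nop56 read 4.6, 4.67 and 4.78 in the controls against 4.39, 4.53 and 4.48 in the mutants (-0.22, SE 0.081). Fbl, which encodes fibrillarin, the methyltransferase of the particle, read 2.95, 3.20 and 3.26 in the controls against 2.93, 3.06 and 2.93 in the mutants, and its groups overlapped (-0.16, SE 0.1).

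The small subunit processome is the large assembly that folds the precursor RNA around the U3 snoRNA and makes the early cuts towards 18S rRNA. Its 15 genes had a median difference of -0.31, in 12 of them the groups did not overlap, and 11 had an unadjusted p under 0.05. The shares of all genes and probes with mutants lower were 11.9% and 7.42% for these criteria. Rcl1, needed for these cuts, read 0.09, 0.21 and 0.13 in the controls against -0.29, -0.34 and -0.49 in the mutants (-0.52, SE 0.084, limma, adjusted p = 0.105; probe at chr19:29217877-29217936). Wdr75, of the subcomplex that joins the nascent RNA early, read 2.0, 2.05 and 2.05 in the controls against 1.67, 1.62 and 1.68 in the mutants (-0.38, SE 0.063). Wdr43, Utp15 and Heatr1, of the same early subcomplex, differed by -0.43, -0.31 and -0.33. In all 4 the groups did not overlap.

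Other processome genes ranged from that size to no measurable difference. Nop14 and its partner Noc4l differed by -0.38 and -0.30, the U3-specific protein Rrp9 by -0.36, Utp20 by -0.32, the methyltransferase Emg1 by -0.28, the helicase Ddx10 by -0.16 and Mphosph10 by -0.20. Imp3 and Imp4, which form a complex with Mphosph10, had overlapping groups. Imp3 read 3.79, 3.90 and 3.95 in the controls against 3.81, 3.74 and 3.98 in the mutants (-0.034, SE 0.092). Imp4 read 1.28, 1.45 and 1.92 in the controls against 1.22, 1.74 and 1.23 in the mutants (-0.15, SE 0.22), so that control 3 and mutant 2 stood out. Utp18, a part of the same processome, read -5.40, -4.76 and -4.81 in the controls against -5.61, -5.12 and -5.02 in the mutants (-0.26, SE 0.23), with overlapping groups.

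All 6 genes of late 40S assembly had groups that did not overlap and an unadjusted p under 0.05, with a median difference of -0.31. Among all genes and probes, 11.9% and 7.42% met these criteria with mutants lower. Tsr1, a GTPase-like factor that blocks early subunit joining, read 0.92, 1.09 and 1.17 in the controls against 0.49, 0.51 and 0.54 in the mutants. The mutants were close together, and the difference was -0.54 (SE 0.087, 1.46-fold lower, limma, adjusted p = 0.105; probe at chr11:74722409-74722468). Rrp12, which takes part in subunit export, read -1.25, -1.45 and -1.12 in the controls against -1.59, -1.67 and -1.87 in the mutants (-0.44, SE 0.12). Nob1, the nuclease that makes the last cut of 18S rRNA, and its partner Pno1 differed by -0.25 and -0.31. Ltv1 and Bysl differed by -0.31 and -0.23.

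The 18 genes of 60S assembly had a median difference of -0.27, in 15 of them the groups did not overlap, and 13 had an unadjusted p under 0.05. With mutants lower, 11.9% and 7.42% of all genes and probes met these criteria. Wdr12 read 1.76, 1.81 and 1.86 in the controls against 1.41, 1.33 and 1.43 in the mutants (-0.42, SE 0.069, limma, adjusted p = 0.106; probe at chr1:60134982-60135040). Bop1 read 2.59, 2.53 and 2.58 in the controls against 2.24, 2.20 and 2.20 in the mutants (-0.35, SE 0.062). Wdr12, Bop1 and Pes1 form the PeBoW complex, which is needed to process the RNAs of the large subunit. The member Pes1, which read 2.24, 2.20 and 2.26 in the controls against 2.10, 1.96 and 2.25 in the mutants (-0.13, SE 0.092), had overlapping groups. Whether its difference is smaller than those of Wdr12 and Bop1 was not tested.

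The other 60S genes followed the same direction. Rrp15, a factor of the early large subunit, read 0.91, 0.99 and 1.04 in the controls against 0.55, 0.57 and 0.59 in the mutants (-0.41, SE 0.069). Nop2, an RNA methyltransferase, read 3.51, 3.71 and 3.72 in the controls against 3.12, 3.21 and 3.22 in the mutants (-0.46, SE 0.087). Noc2l and Noc3l are known partners in moving the pre-60S particle, and their values differed: Noc2l by -0.38 (SE 0.086) and Noc3l by -0.0085 (SE 0.093), the latter at -0.22, -0.09 and -0.02 in the controls and -0.13, -0.22 and 0.00 in the mutants. Nip7, Nop16, Rrp1b and Nle1 lay at -0.33, -0.33, -0.33 and -0.31. The GTPases Gtpbp4 and Gnl2, the helicases Ddx18 and Ddx56 and the stalk assembly factor Mrto4 lay between -0.23 and -0.18, and Brix1 and Ebna1bp2 at -0.15 and -0.14.

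Of the 57 chosen probes, 56 have a position in the authors' deposited table, and those of 8 span over 60 bases of the genome, among them that of Wdr75 at chr1:45879813-45880205. Exon and UTR annotation of the mm9 build was not used here.

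The size of the evidence for single genes depended on how the variance was modelled, on the background correction and on whether litter was in the fit. With a variance trend and robust variance in limma, 9 of the 57 passed, all lower: Gnl3, Polr1b, Dkc1, Gar1, Bop1, Wdr12, Wdr75, Rrp15 and Tsr1, with adjusted p from 0.0187 to 0.0493, against 0.415% of all genes and probes. With normexp background correction 4 of these 9 passed, namely Gnl3, Polr1b, Dkc1 and Tsr1, against 0.292%. With litter as a block 0 passed (44 at an unadjusted p under 0.05, smallest adjusted p = 0.156). All 9 calls were also lost where litter was added to the fit with trend and robust variance (0 of 57, smallest adjusted p = 0.0826 in limma). In the authors' deposited table, which comes from the same 6 arrays, all 57 log2 ratios are negative. An fdr is given there for 34 of the 57 and lies under 0.05 for 7 (Gnl3, Polr1b, Dkc1, Tsr1, Gar1, Wdr12 and Nop2), while 0.909% of all 27269 probes were called lower and 1.31% in either direction. Of the 11483 probes with an fdr in the authors' deposited table, 2.16% were called lower, and those without one have small log2 ratios (a size of at most 0.2945).

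The wider pathway was covered by 102 further genes of ribosome biogenesis, of which 97 were measured. Their median difference was -0.18, and 87 of the 97 were negative. None passed the test over all genes (0 of 97 in limma), which called 0.033% of all genes and probes. At an unadjusted p under 0.05, 42 were lower and 0 higher, against 7.42% and 9.47% of all genes and probes. In 58 of the 97 all mutants lay below all controls, against 11.9% of all genes and probes. This list, too, was chosen with earlier results of these data known. The helicase Ddx51 read 1.22, 1.24 and 1.25 in the controls against 0.87, 0.77 and 0.79 in the mutants (-0.43, SE 0.066, limma, adjusted p = 0.105). The 60S factor Mak16 differed by -0.37, the RNA methyltransferase Ftsj3 by -0.47 and Mdn1, the giant ATPase that remodels the pre-60S particle, by -0.39. On the other side Nol10, Utp6, Nufip1 and Heatr3 were at 0.30, 0.13, 0.08 and 0.12, each with overlapping groups. The widest difference, -1.03 for Sdad1 (SE 0.49), chosen after its values were seen, rested on mutant 1, which was at 0.44 against 2.13 and 2.18 in mutants 2 and 3 and 2.63, 2.44 and 2.76 in the controls.

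**Figure D4:**
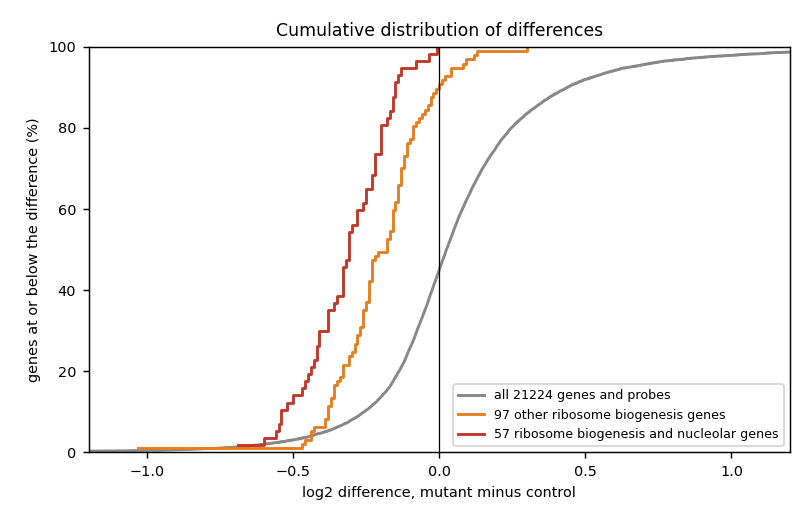
Share of genes at or below each log2 difference, mutant minus control (horizontal axis), for all 21224 genes and probes, the 97 other ribosome biogenesis genes and the 57 genes described here. The curve of the 57 genes reaches 100% just below 0, that of the 97 crosses 0 with 87 genes below it, and that of all genes and probes crosses 0 at 45.0%.

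The Myc and Max network, which includes known activators of many of these genes, went in both directions. The list holds Myc together with factors that oppose it, such as Mxd4, so its median is no measure of Myc activity. Of its 10 measured genes 4 were negative and 6 positive, with a median of 0.02, and 0 passed in limma. At an unadjusted p under 0.05 there were 3 of the 10, 1 lower and 2 higher, against 16.9% of all genes and probes in either direction. Mycn, the family member known from neural progenitors, read 3.15, 3.28 and 3.37 in the controls against 2.28, 1.95 and 1.95 in the mutants (-1.21, SE 0.12, limma, adjusted p = 0.0597). Myc itself read -2.18, -2.16 and -2.16 in the controls against -2.36, -1.96 and -2.37 in the mutants, and its groups overlapped (-0.06, SE 0.13). Mycl (0.42, SE 0.12) and Mxd4 (0.39, SE 0.1), the latter a Max partner known to oppose Myc, were higher in all 3 mutants than in all 3 controls. Whether the ribosome biogenesis genes and Mycn depend on each other was not tested.

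Promoters of the genes were searched for CACGTG, the E-box that Myc and Max bind, because all 57 differences had the same sign. RefSeq promoters of GRCm38.p6 (250 bases before to 50 after a start) were found for 52 of the 57 genes. CACGTG, which reads the same on both strands, lay in a promoter of 11 of the 52 genes (21.2%), in 17.9% of the 78 other ribosome biogenesis genes with a promoter, and in 8.09% of all 27025 genes. Of the 12 copies, 7 began 3 to 38 bases after the start. GGAAGT, the core that ETS factors bind, was in 57.7% of the 52 genes against 26.5% of all genes, and TATAAA in 3.85% against 15.7%, both on either strand. Base composition was not matched in these shares, and 0 copies of CACGTG shared bases with GGAAGT.

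The 3 genes of smallest p with a CACGTG are shown to give its place, as 150 bases from 120 before to 30 after the start, 5′ to 3′ on the + strand, in lower case with CACGTG in capitals. They are Tsr1 at chr11:74897960-74898109, Wdr43 at chr17:71616095-71616244 and Nop2 at chr6:125131763-125131912, all of RefSeq in GRCm38.p6.
Tsr1: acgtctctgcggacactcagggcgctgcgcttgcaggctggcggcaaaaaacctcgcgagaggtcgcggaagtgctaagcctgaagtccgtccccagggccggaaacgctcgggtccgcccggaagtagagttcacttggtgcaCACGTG
Wdr43: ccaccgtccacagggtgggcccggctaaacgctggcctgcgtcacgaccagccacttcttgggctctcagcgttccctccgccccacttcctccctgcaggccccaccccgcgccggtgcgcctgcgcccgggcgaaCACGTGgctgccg
Nop2: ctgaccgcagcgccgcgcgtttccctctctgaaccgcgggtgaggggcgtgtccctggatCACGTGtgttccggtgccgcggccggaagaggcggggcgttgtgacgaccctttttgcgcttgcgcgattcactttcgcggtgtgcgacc

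In Tsr1 and Wdr43 the motif lies after the start, beginning at bases 25 and 18, and in Nop2 it begins 60 bases before it. The 11 genes with CACGTG had a median difference of -0.31 (from -0.54 to -0.08), and the 41 without had one of -0.33 (from -0.69 to -0.0085). Gnl3, Polr1b and Dkc1, the genes of smallest p, hold no CACGTG in this window. A match, or its absence, is a description of the letters in the window. Other E-box sequences, and CACGTG outside the window, were not searched. Whether Myc or Mycn acts on these genes was not tested.

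Lists of marker genes show what else differed between the groups. In bulk tissue, fewer cells of a type and less RNA per cell cannot be told apart. Of 12 neuronal markers 12 were higher or equal in the mutants (median 0.33), and their summed signal, in units of the 75th percentile, ranged from 66.7 to 71.8 in the controls and from 76.0 to 106 in the mutants. Basal progenitor markers were at a median of 0.38 (7 of 7 positive, summed signal 31.7 to 33 and 38.3 to 50.8). Markers of cycling cells were at a median of -0.05, from Mki67 (-0.01) to Mcm5 (-0.22), with 10 of 10 negative, 1 (Mcm5) at an unadjusted p under 0.05 and a summed signal of 146 to 155 in the controls and 139 to 146 in the mutants. In Mcm5, Bub1 (-0.17) and Pcna (-0.14), 3 of the 10, all 3 mutants lay below all 3 controls. This was so for 11.9% of all genes and probes, and 7.42% were lower at an unadjusted p under 0.05. Without mutant 1 the cycling median was -0.02 (6 of 10 negative), and without control 1 or mutant 3 it was -0.11. The summed signal of the 57 genes was 463 to 502 in the controls and 367 to 395 in the mutants. Such a linear sum is weighted to the brightest genes, here Npm1 and Ubtf (control means 6.54 and 5.99). The part of the neuronal, basal progenitor and cycling lists in the difference of the 57 genes was not tested.

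The mutants also differed among themselves in these lists. The neuronal median was 0.088, 0.47 and 0.58 in mutants 1, 2 and 3, where mutant 1 lay within the control range of -0.11 to 0.11. Without mutant 1 the neuronal median difference was 0.50, and without mutant 3 it was 0.22. The basal progenitor median was 0.20, 0.44 and 0.54, above all controls (-0.0065 to 0.027) in each mutant. In the 57 genes the median deviation was -0.30, -0.37 and -0.29 in mutants 1, 2 and 3. The difference within litter 1 was the smallest (-0.23), where control 1 was at -0.06. Whether the 57 genes vary with these lists between embryos was not tested.

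Telencephalic progenitor markers went in both directions, with a median of 0.05 (4 of 9 negative) and a summed signal of 243 to 258 in the controls and 229 to 258 in the mutants. Emx2, a transcription factor of the dorsal and medial pallium, read 1.38, 1.44 and 1.57 in the controls against 0.62, 0.61 and 0.39 in the mutants (-0.92, SE 0.098, limma, adjusted p = 0.0676). Emx1 and Lhx2 differed by -0.81 and -0.58, and in these 3 genes all mutants lay below all controls. Pax6 (0.33) and Vim (0.23) were higher in all 3 mutants than in all 3 controls. The part of these genes in the difference of the 57 was not tested.

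The medians of the other lists moved with the embryo left out. Markers of choroid plexus and hem (6 measured, without Ttr, Wnt3a and Wnt2b) had a median difference of 1.43, but a deviation of 1.96 and 1.84 in mutants 1 and 2 and -0.11 in mutant 3, and Rspo2 and Bmp6 were above background on only 4 arrays. Without control 3 that median was 0.91. The erythroid median of -0.35 came from mutant 3, at -0.96 against -0.033 and -0.057 in mutants 1 and 2, and was -0.04 without it. The endothelial median of -0.13 turned to 0.09 without mutant 3 and was -0.07 without control 2 and -0.29 without mutant 1. The microglial median of -0.30 ranged from -0.51 (without mutant 1) to -0.17 (without mutant 2), and was -0.19 without mutant 3. That of meninges, 0.03, ranged from -0.48 (without mutant 1) to 0.38 (without mutant 3). Cajal-Retzius markers had a median of 0.32, with 0.20 without control 3 and 0.14 without mutant 2.

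**Figure D5:**
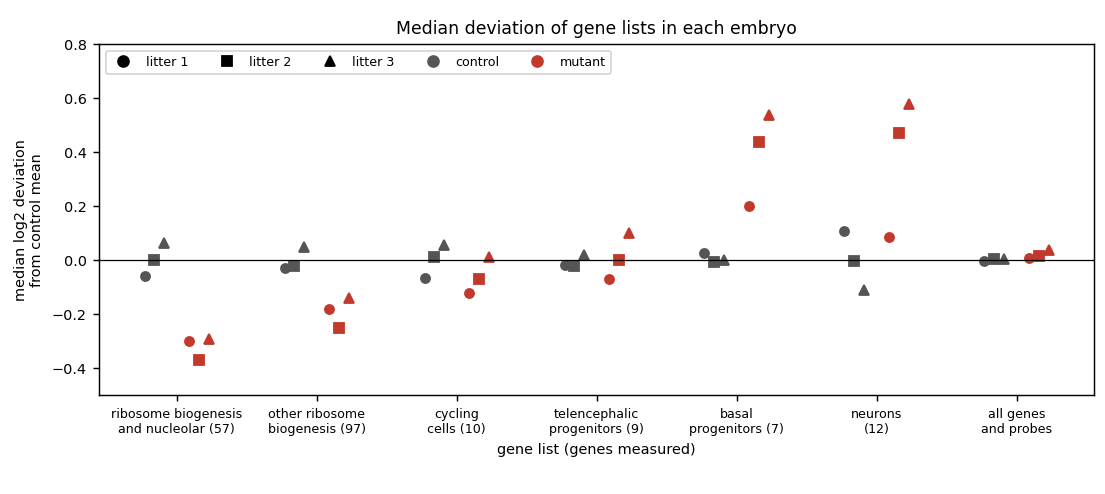
Median log2 deviation from the control mean (vertical axis) of each gene list in each embryo, controls in grey and mutants in red, with a symbol for each litter. The 57 genes lie between -0.37 and -0.29 in all 3 mutants, while the neuronal list ranges from 0.088 in mutant 1 to 0.58 in mutant 3.

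Across the series, spots flagged well above background made up 68.68% to 70.1% in the controls and 65.75% to 67.9% in the mutants, 0 spots were saturated, and the 75th percentile of the signal was 1446.2 to 1833.2 in the controls and 1206.9 to 1380.2 in the mutants. These technical values moved with the groups, and their part in the differences was not tested. With quantile normalization in place of this scaling the median of the 57 genes was -0.303 and that of all genes and probes -0.008. Ctnnb1, which encodes beta-catenin, read 3.79, 3.86 and 3.79 in the controls against 3.39, 3.68 and 3.54 in the mutants. Because the labels name no mutated gene, its level checks no label.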

How the data were processed

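Linear spot intensity was deposited for each array, extracted by the authors with Agilent Feature Extraction 10.7.3.1 and background-subtracted within the array, per the file headers. The flags used (above background, saturated, outlier), coded 0 or 1, are from the same files. The authors' deposited table holds log2 values, a log2 ratio, and a p-value and fdr for 27269 probes, and the sources used here do not give the step that equalised its columns. Its columns were used by group. The submitters' processing notes name limma.

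After removal of outlier spots and averaging per probe, the processed signal was put on a log2 scale relative to each array's 75th percentile. Probes above background on at least 3 arrays were kept (26849), with the brightest for each gene, giving 21224 tested, 16947 of them named. Names other than those of the 57 genes come from accessions in the GRCm38.p6 reference or else from the symbol column. Groups were compared with limma 3.58.1 in R 4.3.3 (lmFit, eBayes, Benjamini-Hochberg, threshold 0.05, two-sided), checked on simulated data. Tables and figures used Python 3.11.15, pandas 2.3.3, numpy 2.4.6 and matplotlib 3.10.9.

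Litters pair the samples, per the labels' titles. The correlation of deviations between litter mates was 0.31, 0.359 and 0.109 for litters 1, 2 and 3. Between a control and a mutant of different litters it ranged from -0.411 (control 1, mutant 2) to 0.106 (control 3, mutant 2). The value of litter 3 is thus close to one of different litters. Members and lists were chosen with earlier results of these data known. Genes were named by smallest p (10), by level within each role, and, outside the 57, by smallest p in each direction, and further members were added to complete the roles. The alternatives were normexp (offset 50, on median signal and background), quantile normalization, median centring, no filter or one on all 6 arrays, all probes of a gene averaged, a block for litter or for slide, each slide alone, trend with robust variance, the authors' log2 values, an adjusted p under 0.1 and omission of each embryo. Litter with trend and robust variance, the 34 genes of the other symbol column, and the marker lists without each embryo were added after seeing the data.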

Additional observations from a re-analysis of the deposited data

How the results depend on the processing

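The median difference of the 57 genes was -0.312 and stayed negative under every alternative run. It was -0.357 with median centring, -0.227 within slide 1, -0.278 to -0.338 on omission of single embryos, and -0.321 over the 34 genes of the other symbol column. The count of the 57 that passed was 0, and became 4 with normexp, 9 with trend and robust variance and 3 at an adjusted p under 0.1. It stayed 0 with litter (replicate block), slide, quantile normalization, the other filters, the authors' log2 values and each embryo left out in turn. In the fit without trend the replicate block left the 57 genes at 0 calls. Added to trend and robust variance, the replicate block (litter) ended all 9 of its calls (0 of 57).

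Over all genes and probes the count of 7 (2 higher) became 121 with normexp (59 higher), 15 with quantile normalization, 0 without a filter, 26 with a filter on all 6 arrays, 2 where probes of a gene were averaged, 0 with litter as a replicate block, 0 with slide as a block, 0 within slide 2, 144 with trend and robust variance, 2 with litter (replicate block) plus trend and robust variance, 22 with the authors' log2 values, 79 at an adjusted p under 0.1, and 0 to 1 with each embryo left out in turn. The causes were not tested.

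Genes near 0 turned sign. Noc3l was at 0.0024 with normexp, 0.088 within slide 1, and from -0.067 to 0.043 on omission of single embryos (positive without control 2, control 3 or mutant 2). On the same omissions Imp3 ranged from -0.1 to 0.017 (positive without mutant 2), Imp4 from -0.32 to 0.035 (positive without control 3), Heatr3 from -0.028 to 0.27 (negative without mutant 2) and Myc from -0.19 to 0.0092 (positive without mutant 1 or 3). Imp3 was at 0.024, Nufip1 at -0.13 and Heatr3 at -0.0095 within slide 1, which holds 1 embryo a group and gives no test. Utp6 was at -0.11 where its probes were averaged.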
